A study of Mus musculus with 6 samples.

Results

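The genes described are 35 transport and metabolism genes of the proximal tubule, the nephron segment next to the glomerulus, measured in cells sorted from newborn mouse kidney. They were chosen by symbol as a named list, with all probes of each symbol. The array held 42 probes for them, of which 41 were well above background in the sample channel on at least 3 of the 6 arrays, and all 35 genes were among the 14753 genes tested. In 34 of the 35 the probe that stood for the gene was well above background on all 6 arrays. The exception was Slc22a4, which was not on KO replicate 2.

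The samples were labelled as collecting duct cells of C57BL/6 mice, 3 from animals without the bradykinin B2 receptor gene Bdkrb2 in the duct lineage (KO) and 3 from animals with it (WT). The KO pups were Hoxb7cre+; Bdkrb2f/f; R26RtdTomato and the WT pups Hoxb7cre+; R26RtdTomato; Bdkrb2+/+, so both groups carried the Cre driver and the red reporter. The Hoxb7 driver acts in the ureteric bud lineage, which forms the collecting duct and not the proximal tubule. Cells positive for GFP and dsRED were taken at postnatal day 1. Both groups were exposed to a diet of 5% sodium, so no group is without the salt load. The floxed parents that the labels give can have no wild-type pups, and litter and genotype therefore cannot be told apart. The labels do not say how many pups went into a sample, so p-values measure the spread between these samples.

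The proximal tubule takes back most of the glucose, phosphate, amino acids, organic acids and small proteins that the glomerulus filters. Its apical membrane carries sodium-driven cotransporters and the endocytic receptors megalin and cubilin, and its basolateral membrane carries organic anion and cation transporters. The cells also make glucose, handle ammonia and synthesise arginine and guanidinoacetate, and the nuclear receptor HNF4A drives much of this programme. Many of these genes rise in the last days of gestation and after birth, as nephrons mature.

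Each array carried a sample in the Cy5 channel and the RNA of WT replicate 1 in the Cy3 channel. Ratios below are log2 of Cy5 over Cy3 after normalisation, so 0 means the level of the WT replicate 1 RNA, and processed signals are the Cy5 intensities given by the scanner software, which are not scaled between arrays. Between 49.8% and 57.5% of spots per array were well above background in Cy5, and no spot was saturated. The 75th percentile of the processed Cy5 signal was 282.4 to 309.1 on the WT arrays and 547.6 to 625.4 on the KO arrays, so processed signals are to be read within a group. Of 15 principal cell and 12 intercalated cell markers of the labelled collecting duct, 14 and 12 were well enough detected to be tested, and Scnn1g was not. All 26 were lower in KO (limma adjusted p under 0.05, as for 20.0% of all genes tested), with medians of -1.87 and -2.40.

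The proximal tubule genes differed widely among the WT arrays. WT replicate 2 had the lowest of the 3 WT ratios for all 35 genes, which held for 37.2% of all genes tested. The median ratio of the 35 genes was 0.06 on WT replicate 1, -0.92 on WT replicate 2 and -0.17 on WT replicate 3. WT replicate 1 thus had a 1.95-fold higher median level than WT replicate 2, against 1.02-fold over all genes tested. For 33 of the 35 genes the order was WT replicate 1, then 3, then 2, as for 21.7% of all genes tested. The exceptions were Kap and Slc13a3, which were slightly higher on WT replicate 3 than on WT replicate 1.

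The array of WT replicate 1 set this RNA against itself, so its ratios show technical error on that array only. They leave out error from sorting, RNA extraction and slide row 2, where WT replicates 2 and 3 lay. On that self-against-self array the 35 ratios ran from -0.19 for Slc5a2 to 0.31 for Cubn, and 33 of them lay within 0.25 of 0. The Cy3 channel, which held this RNA on every array, gave a median SD of 0.06 over the 6 arrays for these genes after scaling to each array's 75th percentile, against a median SD of 0.54 for the Cy5 channel of the 3 WT samples treated the same way. The probe of Slc5a8 was printed in 10 spots, and its ratio on WT replicate 2 was -0.46 with an SD of 0.07 over the 8 spots used. On WT replicate 1 it was 0.13 with an SD of 0.09 over 10 spots.

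In numbers, the median SD of the 3 WT ratios was 0.49 for the 35 genes and 0.11 for all genes tested. The SD was largest for Slc13a3 (0.68), Spp2 (0.66) and Miox (0.66) and smallest for Cyp2e1 (0.05). The KO arrays were closer together, with a median SD of 0.23, and the WT SD was above the KO SD for 31 of the 35 genes, against 37.6% of all genes tested. The median ratio of the list was -0.44, -0.69 and -0.84 on KO replicates 1 to 3, so every KO array lay between WT replicates 2 and 3. WT replicate 2 remained the lowest of the WT arrays for all 35 genes with the Agilent ratios, the series matrix, median centring and no background correction, and for 34 with Cy5 alone, where Cyp2e1 was the exception.

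**Figure D1:**
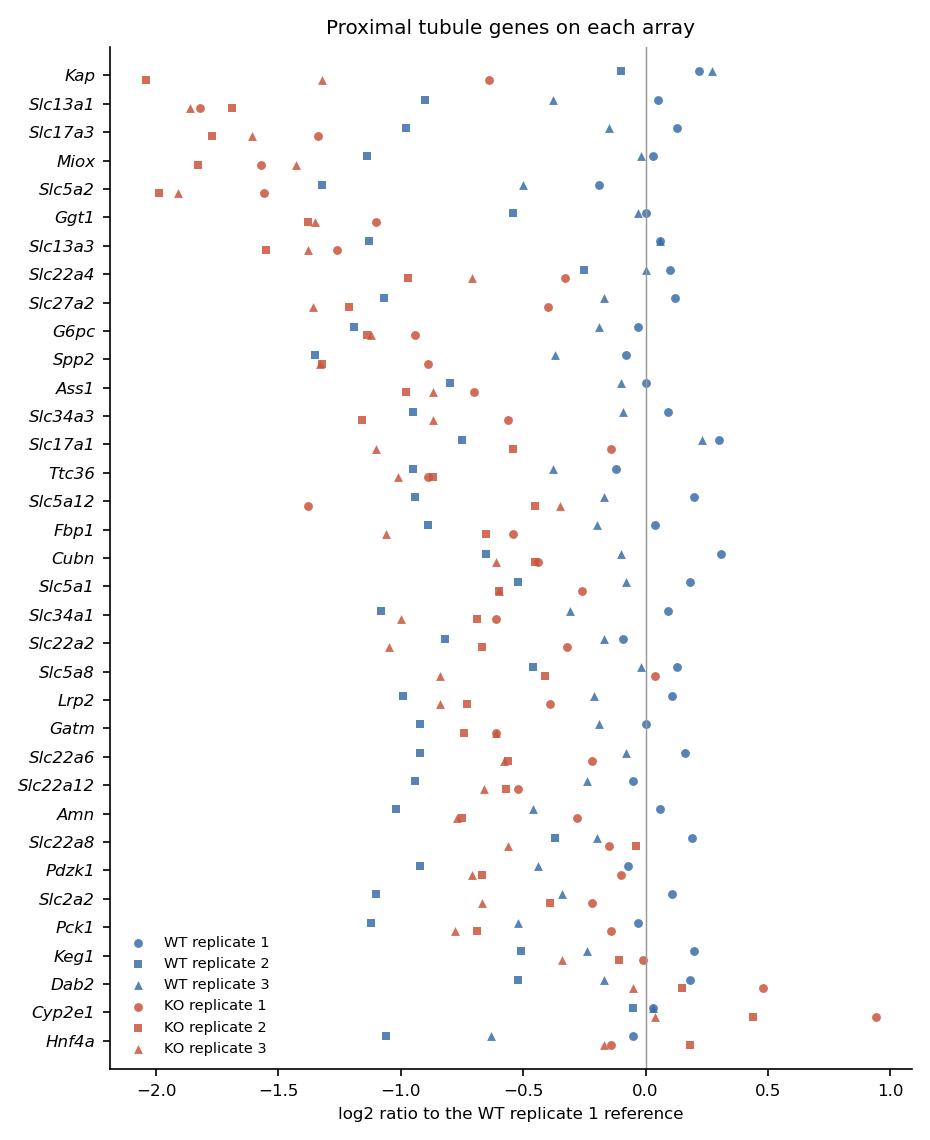
Log2 ratio to the WT replicate 1 reference (x axis) of each of the 35 proximal tubule genes (rows, ordered by the difference between KO and WT), with 1 point per array, WT in blue and KO in red. The blue squares of WT replicate 2 lie left of the other blue points in every row, and the red points lie left of all blue points in 8 rows.

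Other cell types shared the position of WT replicate 2 only in part. On that array the median ratio was -0.97 for podocyte, -0.80 for renal stroma, -0.69 for loop of Henle and distal tubule and -0.46 for intercalated cell markers. It was lowest for the erythroid markers, at -1.29, where all 5 tested were lowest on WT replicate 2 among WT. All 5 fell in KO (median -2.47), against 20.0% of all genes tested, and Slc4a1 among them is also counted as an intercalated cell marker. On WT replicate 2 the median was -0.40 for macrophage and leukocyte markers, -0.14 for principal cells, 0.07 for nephron progenitors and 0.00 for endothelium. On WT replicate 3 the podocyte and stroma medians were also low, at -0.86 and -0.89, whereas the proximal list was at -0.17. The summed Cy5 signal of the 35 genes, in units of each array's 75th percentile, was 341.5, 179.1 and 306.7 on WT replicates 1 to 3 and 223.6, 176.1 and 167.0 on KO replicates 1 to 3. Fewer proximal cells in a sorted sample and less of these RNAs per cell cannot be told apart in bulk RNA. The summed signal of the tested loop and distal markers was 179.0 to 308.6 in WT and 42.6 to 53.5 in KO, that of erythroid markers 243.1 to 591.9 and 78.1 to 108.4, that of podocyte markers 44.1 to 99.1 and 111.2 to 129.3, and that of principal cell markers 205.0 to 242.1 and 49.96 to 66.51. Intercalated cell markers gave 73.84 to 121.6 and 16.42 to 19.84, and endothelial ones 110.2 to 123.9 and 53.86 to 56.38. Macrophage and leukocyte markers gave 8.05 to 12.39 and 16.01 to 25.45. For nephron progenitor markers it was 33.89 to 39.92 in WT and 76.19 to 146.9 in KO. For renal stroma it was 14.82 to 49.46 and 119.8 to 125.8. Of their tested markers 9 of 10 and 9 of 11 passed as higher in KO, against 15.3% of all genes tested. Only markers well above background on at least 3 arrays were tested, so a tested marker could not be at 0 throughout. The lists therefore cannot show that each cell type was present in each sample. The nephron progenitor marker Tmem100 was well above background on 1 WT array and on 3 KO arrays. The part of these cell types in the proximal values was not tested.

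**Figure D2:**
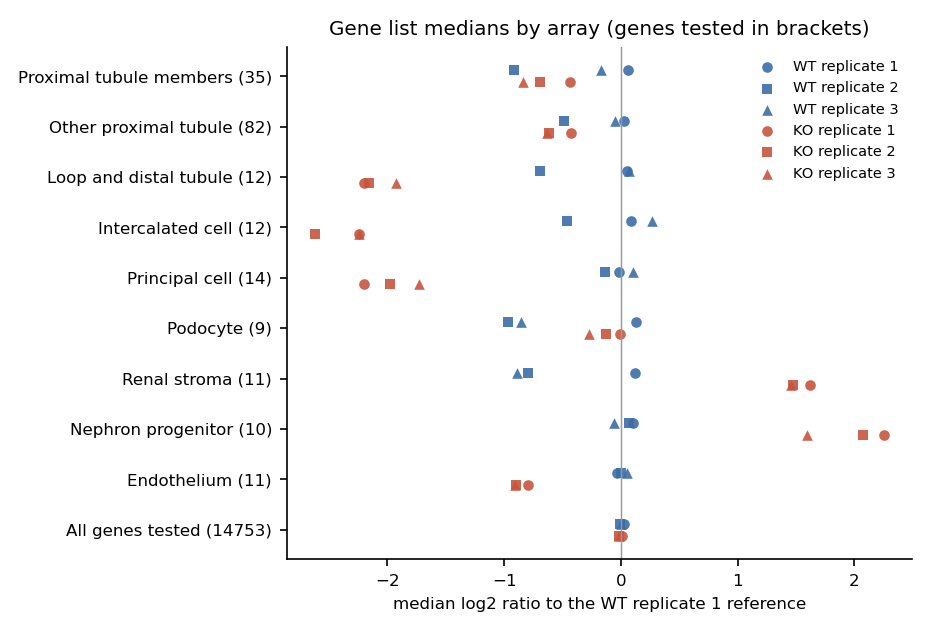
Median log2 ratio to the WT replicate 1 reference (x axis) of gene lists (rows, number of genes tested in brackets) on each of the 6 arrays. The proximal list has its KO medians, -0.44 to -0.84, between those of WT replicates 2 and 3, while the loop, principal and intercalated lists have all KO medians below -1.7.

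Between KO and WT, 8 of the 35 genes fell and 0 rose (limma adjusted p under 0.05), which in either direction held for 35.3% of all genes tested. Limma called 20.0% of all genes tested as lower and 15.3% as higher, so the share of members that fell, 22.9%, was near the background. That closeness depends on the scaling: under median centring 7 members (20% of the list) were lower, against 7.02% of all genes, and 3 (8.57%) were higher, against 20.3% of all genes. Without adjustment 9 members were lower and 1 was higher at limma p under 0.05, against 3698 lower and 3068 higher of the 14753 genes tested. The fallers were Kap, Slc13a1, Slc17a3, Miox, Slc5a2, Ggt1, Slc13a3 and Slc22a4, of which 7 fell at least 2-fold. In each of the 8, all KO ratios lay below all WT ratios, as for 28.2% of all genes tested. Cyp2e1 was the 1 member with all KO ratios above all WT ratios, as for 23.9% of all genes tested. The other 27 did not pass, with differences from -0.61 (Slc27a2) to 0.54 (Hnf4a), and the median over the 35 was -0.36 against -0.02 over all genes tested.

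The count turns on single arrays. Without WT replicate 2, 21 members (60.0%) were lower, including the same 8, against 17.9% of all genes, while 12.0% of all genes and 0 members were higher, and the median difference of the members was -0.66. The count was 6 without WT replicate 1 (15.0% of all genes), 4 without WT replicate 3 (13.4%), 9 without KO replicate 1 (22.7%), 5 without KO replicate 2 (15.6%) and 6 without KO replicate 3 (17.1%). With array weights it was 16 (45.7%), against 25.6% of all genes, and with the replicate number as a block 10 (28.6%), against 19.6%. Against the single WT replicates, the median of KO was 0.79 below WT replicate 1 and 0.51 below WT replicate 3 on the log2 scale but 0.14 above WT replicate 2. KO replicates 1 to 3 and WT replicate 1 lay in slide row 1 and WT replicates 2 and 3 in row 2. When slide row was added to the fit, KO was in effect set against WT replicate 1, since that is the row they share. There 5 members were lower (Slc17a3, Slc5a2, Slc13a1, Miox and Ggt1), against 10.0% of all genes lower and 14.9% in either direction. Slc13a1, Slc17a3 and Ggt1 kept their call when any single array was left out and when the row was in the fit.

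**Figure D3:**
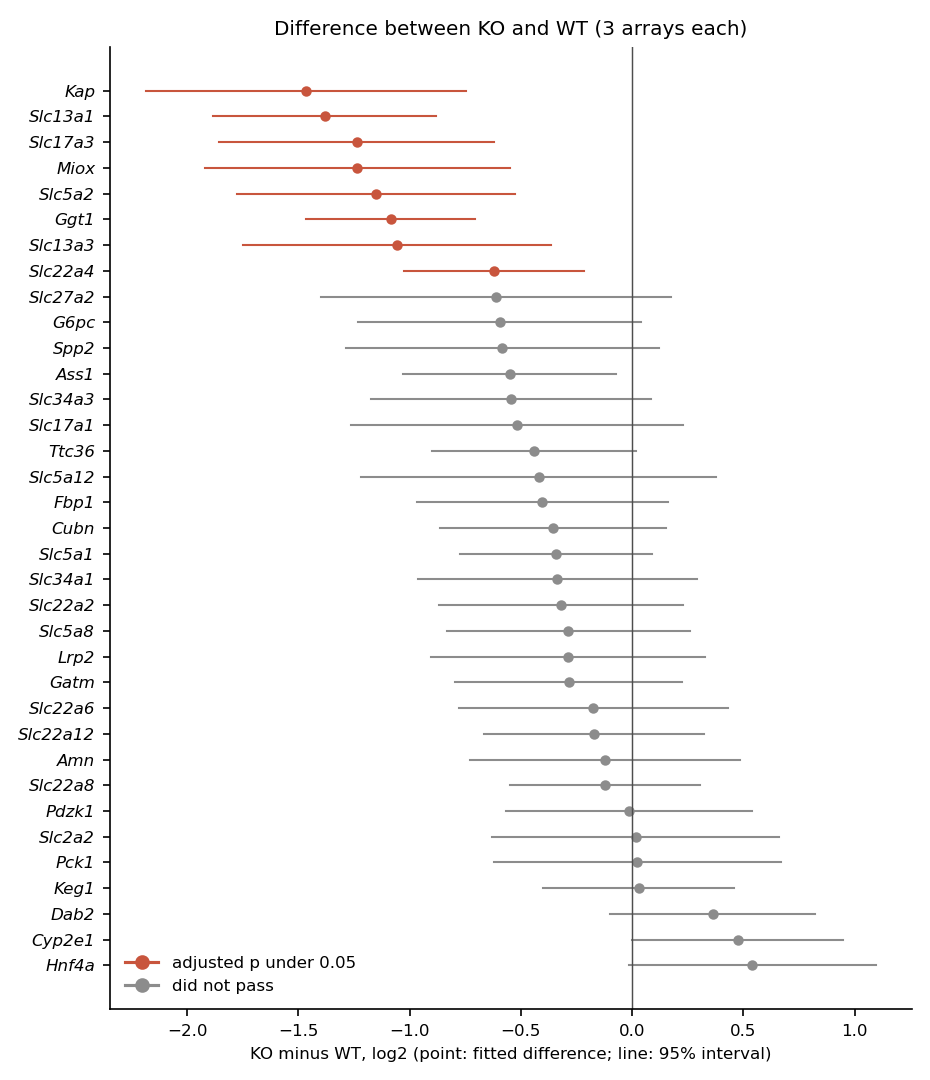
Fitted difference between KO and WT (x axis, log2, point) with its 95% interval (line) for each of the 35 genes, red where the limma adjusted p was under 0.05. The 8 red intervals lie below 0, and most grey intervals are over 1 log2 unit wide and reach across 0.

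The endocytic receptors and their partners did not pass the test. Megalin (Lrp2), the large receptor that takes up filtered proteins, gave ratios of 0.11, -0.99 and -0.21 in WT and -0.39, -0.73 and -0.84 in KO. Its processed signals were 8424, 3992 and 6099 in WT, so the lowest WT sample was the outlying one and the groups overlapped. The difference was -0.29 ± 0.27 (SE, n = 3 arrays per group; 95% interval -0.90 to 0.33). Cubilin (Cubn), the partner receptor for vitamin B12 and albumin, gave -0.36 ± 0.22, and amnionless (Amn), which carries cubilin to the membrane, -0.12 ± 0.26. The second Cubn probe, at processed signals of 25.01 to 88.06, gave a difference near 0 (-0.0014). Dab2, the adaptor for megalin uptake, which macrophages and other cells also express, gave 0.18, -0.52 and -0.17 in WT and 0.48, 0.15 and -0.05 in KO. Its difference of 0.36 ± 0.20 did not pass.

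Among phosphate transporters and their scaffold 1 of 5 fell (20%), which is near the 20.0% of all genes tested. Slc17a3, an apical organic anion and urate transporter of the sodium phosphate cotransporter family, gave ratios of 0.13, -0.98 and -0.15 in WT and -1.34, -1.77 and -1.61 in KO. All 3 KO samples lay below the lowest WT sample, and the difference was -1.24 ± 0.27 (2.36-fold lower, limma adjusted p = 0.00883). A second, dimmer Slc17a3 probe also had its KO values below its WT values, with a difference of -0.43 (adjusted p = 0.0561 over all probes). Its family member Slc17a1 gave 0.30, -0.75 and 0.23 in WT and -0.14, -0.54 and -1.10 in KO, so these groups overlapped, and the difference was -0.52 ± 0.32. The 2 transcripts are paralogs and may share some signal. The main phosphate transporter Slc34a1 (NaPi-IIa) gave -0.34 ± 0.27 with its brighter probe and -0.27 with the other. Slc34a3 (NaPi-IIc) gave -0.54 ± 0.27, and the scaffold protein Pdzk1, which anchors these transporters, -0.01 ± 0.24 (95% interval -0.57 to 0.54).

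Glucose uptake genes divided, with 1 of 3 lower (33.3%, against 20.0% of all genes tested). Slc5a2, the sodium-glucose cotransporter SGLT2 of the early tubule, gave ratios of -0.19, -1.32 and -0.50 in WT and -1.56, -1.99 and -1.91 in KO. WT replicate 2 came close to KO replicate 1, yet the groups did not overlap, and the difference was -1.15 ± 0.27 (2.22-fold lower, adjusted p = 0.0128, and 0.0556 without WT replicate 3). Slc5a1, the high-affinity cotransporter SGLT1 of the late tubule, gave 0.18, -0.52 and -0.08 in WT and -0.26, -0.60 and -0.60 in KO, which overlapped (-0.34 ± 0.19). Its processed signals of 23.1 to 86.7 were low, though well above background on all 6 arrays. Slc2a2, the basolateral glucose exit carrier GLUT2, gave 0.11, -1.10 and -0.34 in WT and -0.22, -0.39 and -0.67 in KO. Its difference was 0.02 ± 0.28 (95% interval -0.63 to 0.66). The 3 genes of glucose transport were thus lower together on WT replicate 2, while the difference between KO and WT passed for SGLT2 alone, and differences between these genes were not tested.

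The monocarboxylate transporters Slc5a8 and Slc5a12, which take up lactate and pyruvate, did not pass. Slc5a8 gave 0.13, -0.46 and -0.02 in WT and 0.04, -0.41 and -0.84 in KO, a range of 0.88 within KO against 0.59 within WT. For Slc5a12 the 2 probes disagreed on 1 array. The brighter gave -1.38 on KO replicate 1 and -0.45 and -0.35 on the other KO arrays (difference -0.42 ± 0.35), while the second gave -0.18, -0.59 and -0.59 there and a difference of 0.06. The direction for Slc5a12 therefore depends on the probe.

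Of 5 organic ion transporters 1 fell (20%), again near the 20.0% of all genes tested. Slc22a4, a carrier of ergothioneine and carnitine, gave 0.10, -0.25 and 0.00 in WT and -0.33, -0.97 and -0.71 in KO (-0.62 ± 0.17, adjusted p = 0.0261). Its processed signals were 39.9 to 72.2 in WT and 21.7 to 63.4 in KO, so it was dim throughout. The difference was -1.50 with the Agilent ratios (adjusted p = 0.0731) and -1.61 with Cy5 alone (0.0334), and median centring, the row term and leaving out either of WT replicates 1 and 3 or of KO replicates 2 and 3 each ended the call. The organic anion transporters Slc22a6 (OAT1) and Slc22a8 (OAT3), which load drugs and urate into the cell, gave -0.17 ± 0.26 and -0.12 ± 0.19. Slc22a2, the organic cation transporter OCT2, gave -0.32 ± 0.24, and Slc22a12, the urate exchanger URAT1, -0.17 ± 0.21. All 5 genes were lowest among WT on replicate 2, with WT replicate 1 between 1.28-fold (Slc22a4) and 2.11-fold (Slc22a6) above it.

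Both transporters of sulphate and dicarboxylates fell, against 20.0% of all genes tested. Slc13a1, the apical sodium-sulphate cotransporter NaS1, gave ratios of 0.05, -0.90 and -0.38 in WT and -1.82, -1.69 and -1.86 in KO. The KO samples lay within 0.2 of each other and well below the lowest WT sample, and the difference was -1.38 ± 0.22 (2.61-fold lower, adjusted p = 0.00217). With the Agilent ratios the difference was -2.24, with the series matrix -2.24 and with Cy5 alone -2.21. Its processed signals were 52.8 to 94.2 in KO. Slc13a3, the basolateral dicarboxylate carrier NaDC3 that supplies the anion exchangers, gave 0.06, -1.13 and 0.06 in WT and -1.26, -1.55 and -1.38 in KO. WT replicate 2 stood apart from the other WT samples and near KO, and the difference was -1.06 ± 0.30 (2.08-fold lower, adjusted p = 0.0272). Leaving out either of WT replicates 1 and 3 or of KO replicates 2 and 3 ended that call (adjusted p up to 0.104), as did the row term (0.0554) and Cy5 alone (0.0533).

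The enzymes of glucose synthesis did not pass. Fructose bisphosphatase (Fbp1) gave 0.04, -0.89 and -0.20 in WT and -0.54, -0.65 and -1.06 in KO (-0.40 ± 0.24). Phosphoenolpyruvate carboxykinase (Pck1), the entry step, gave -0.03, -1.12 and -0.52 in WT and -0.14, -0.69 and -0.78 in KO (0.02 ± 0.28, 95% interval -0.62 to 0.67). Glucose-6-phosphatase (G6pc), the last step, gave -0.03, -1.19 and -0.19 in WT and -0.94, -1.14 and -1.12 in KO (-0.60 ± 0.28, adjusted p = 0.129). Its KO samples were close together and below WT replicates 1 and 3 but not below WT replicate 2. Without WT replicate 2, G6pc was lower by 0.96 on the log2 scale (-0.96 ± 0.12, adjusted p = 0.00224) and Fbp1 by 0.67 (-0.67 ± 0.18, adjusted p = 0.0327), while Pck1 did not pass (-0.26 ± 0.24). In that fit 17.9% of all genes tested were lower. With other single arrays left out the adjusted p reached 0.350 for G6pc and 0.558 for Fbp1.

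Of 7 other metabolic genes 2 fell (28.6%, against 20.0% of all genes tested). Miox, the oxygenase that opens inositol and is largely limited to the proximal tubule, gave processed signals of 20670, 10480 and 18920 in WT and 14630, 12760 and 14690 in KO. It had ratios of 0.03, -1.14 and -0.02 in WT and -1.57, -1.83 and -1.43 in KO, with every KO sample below WT replicate 2. The difference was -1.24 ± 0.30 (2.35-fold lower, adjusted p = 0.0139), with an adjusted p of up to 0.0595 without WT replicate 3 or KO replicate 2. Ggt1, the brush border gamma-glutamyl transferase that breaks down glutathione, gave 0.00, -0.54 and -0.03 in WT and -1.10, -1.38 and -1.35 in KO. WT replicate 2 was less far from the other WT samples here, and the difference was -1.09 ± 0.16 (2.12-fold lower, adjusted p = 0.00185).

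The other 5 did not pass. Slc27a2, a fatty acid transporter and acyl-CoA synthetase, gave -0.61 ± 0.34, and Ass1, which makes the precursor of arginine, gave -0.55 ± 0.21 (adjusted p = 0.0728) with both probes below 0. Gatm, the first enzyme of creatine synthesis, gave -0.28 ± 0.22, and Keg1, a glycine acyltransferase-like gene, 0.03 ± 0.19. Cyp2e1, an ethanol-inducible cytochrome P450, had ratios of 0.03, -0.05 and 0.03 in WT and 0.94, 0.44 and 0.04 in KO. Its KO samples ran from the WT level upwards, at processed signals of 18.7 to 30.3 in WT and 56.9 to 206.4 in KO, and the difference of 0.47 ± 0.21 did not pass (adjusted p = 0.109). It passed without KO replicate 3 (0.0190), where 13.9% of all genes were higher, and with median centring, and its second probe was well above background on 2 of the 6 arrays.

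Kap, the androgen-regulated kidney protein gene of mouse proximal tubule, had the largest difference between KO and WT of the list. It had ratios of 0.22, -0.10 and 0.27 in WT and -0.64, -2.04 and -1.32 in KO. The processed Kap signal was 5914, 5440 and 6521 across the WT arrays and 7543, 2985 and 3498 across the KO arrays. WT replicate 2 was near the other WT samples, at a distance of 0.37 from the highest, while the KO samples spread over 1.40 log2 units. The difference was -1.47 ± 0.31 (2.76-fold lower, adjusted p = 0.00827, and 0.0689 with the row term). The Y-linked transcript Ddx3y gave 0.04, 1.41 and 0.55 in WT and 1.57, 2.04 and 1.43 in KO. It differed among the WT samples, and all its KO ratios lay above all its WT ratios, as for 23.9% of all genes tested. The lowest KO ratio, 1.43, was close to the highest WT ratio, 1.41. Its difference was 1.01 ± 0.33 (limma adjusted p = 0.0429). The Y-linked Eif2s3y overlapped between the groups (limma adjusted p = 0.121), and Xist did not pass (0.198). The part of these transcripts in the Kap values was not tested. Spp2, a secreted phosphoprotein, gave -0.58 ± 0.30, and Ttc36, of less certain role, -0.44 ± 0.20. Neither passed, and without WT replicate 2 both did (adjusted p = 0.00879 and 0.00922), where 17.9% of all genes tested were lower. With other single arrays left out the adjusted p reached 0.449 for Spp2 and 0.339 for Ttc36.

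Hnf4a, the nuclear receptor that drives proximal tubule identity, did not pass the test and had the highest difference of the list. It had ratios of -0.05, -1.06 and -0.63 in WT and -0.14, 0.18 and -0.17 in KO, so WT replicate 2 was low as for the rest, but every KO sample was above WT replicates 2 and 3. The difference was 0.54 ± 0.24 (95% interval -0.02 to 1.09, adjusted p = 0.118). Without WT replicate 1 Hnf4a passed as higher (adjusted p = 0.0170), where 11.9% of all genes did, and it also passed with median centring, whereas with the row term its difference was 0.0042.

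Since HNF4A is a known regulator of many of these genes, promoter windows from RefSeq (build GRCm38.p6, 250 bases before to 50 after each annotated start) were searched for its short motifs on both strands. Of the 35 genes 31 had a window. The letters CAAAG, found in HNF4 sites, occurred in 25 of the 31 genes (80.6%), against 52.4% of 11690 tested genes with a window. The longer CAAAGTCCA, which contains CAAAG, occurred in 1 gene, Pdzk1 (3.23%), against 0.479%. The TATA letters TATAAA occurred in 6 (19.4%), against 9.97%. Of the 8 genes that fell, 6 had a window, and CAAAG occurred in Ggt1, Slc13a3 and Slc17a3 and not in Kap, Miox and Slc22a4. Such matches are descriptions of the letters and show no binding.

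The windows below are the one of Pdzk1 that holds the longer motif, those of Slc17a3 and Slc13a3 as genes that fell and hold CAAAG, and those of Miox and Kap as genes that fell and do not. Capitals mark CAAAG or its reverse complement, and each sequence is read 5′ to 3′ on the gene's strand.
Pdzk1, chr3:96829815-96830114, plus strand: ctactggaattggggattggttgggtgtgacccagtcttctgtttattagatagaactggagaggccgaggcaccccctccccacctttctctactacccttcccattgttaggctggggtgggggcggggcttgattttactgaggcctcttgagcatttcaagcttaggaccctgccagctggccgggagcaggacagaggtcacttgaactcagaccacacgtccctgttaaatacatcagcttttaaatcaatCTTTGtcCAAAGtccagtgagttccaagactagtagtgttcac
Slc17a3, chr13:23839184-23839483, plus strand: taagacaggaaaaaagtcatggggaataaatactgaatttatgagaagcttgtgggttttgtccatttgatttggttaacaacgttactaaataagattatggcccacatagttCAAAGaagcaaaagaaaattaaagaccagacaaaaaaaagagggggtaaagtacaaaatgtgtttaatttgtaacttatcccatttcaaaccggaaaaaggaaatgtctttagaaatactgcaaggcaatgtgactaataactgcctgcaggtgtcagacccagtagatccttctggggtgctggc
Slc13a3, chr2:165473148-165473447, minus strand: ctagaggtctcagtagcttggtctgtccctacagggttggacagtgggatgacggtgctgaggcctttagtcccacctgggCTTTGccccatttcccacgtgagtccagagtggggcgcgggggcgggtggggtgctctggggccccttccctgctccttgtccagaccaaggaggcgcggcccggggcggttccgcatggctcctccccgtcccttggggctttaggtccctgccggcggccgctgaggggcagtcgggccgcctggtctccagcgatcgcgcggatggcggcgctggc
Miox, chr15:89334223-89334522, plus strand: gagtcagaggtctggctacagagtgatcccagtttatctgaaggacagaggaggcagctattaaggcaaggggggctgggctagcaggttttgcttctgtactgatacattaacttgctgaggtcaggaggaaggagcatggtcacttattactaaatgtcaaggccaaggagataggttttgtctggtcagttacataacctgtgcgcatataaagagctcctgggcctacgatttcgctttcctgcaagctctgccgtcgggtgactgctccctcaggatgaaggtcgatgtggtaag
Kap, chr6:133853618-133853917, minus strand: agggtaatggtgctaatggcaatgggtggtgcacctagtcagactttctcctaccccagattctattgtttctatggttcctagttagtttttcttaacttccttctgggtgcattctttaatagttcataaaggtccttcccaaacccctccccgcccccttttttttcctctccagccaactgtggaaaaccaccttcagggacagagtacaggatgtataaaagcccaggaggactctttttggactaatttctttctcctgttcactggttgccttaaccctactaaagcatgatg

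Set against each other on the same array, the 35 genes were closer together among the WT samples, which subtracting their own median in part builds in. After the median of the 35 was subtracted on each array, the median SD among WT samples was 0.13 in place of 0.49. This centring was chosen after the values were seen and is given as a description. Relative to the list, 9 genes had all KO values below all WT values and 8 had them above. Centring on the list's own median in part sets a split to both sides, so these counts are not a result about the list. Over all genes tested the shares were 5.92% and 13.4%, against 28.2% and 23.9% without the subtraction. The subtraction gives genes outside the list the spread of the list median, so these shares cannot serve as a background for the members. The 9 lower genes were the 8 fallers except Slc22a4, with G6pc and Spp2 added. Slc13a1 was at 0.00, 0.03 and -0.21 in WT and at -1.38, -1.0 and -1.01 in KO relative to the list. Slc17a3 was at 0.07, -0.06 and 0.02 in WT and at -0.90, -1.08 and -0.77 in KO. Relative to the list the difference was -1.07 for Slc13a1 and -0.93 for Slc17a3, and the WT samples lay closer together than in the ratios above. A limma fit on these values, which gave every gene the same standard error, called 2 members lower (Kap and Slc13a1, against 2.69% of all genes) and 0 higher (against 7.06%). These shares over all genes have the same limit.

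The genes above the list in KO were Hnf4a, Cyp2e1, Dab2, Keg1, Pck1, Slc2a2, Pdzk1 and Slc22a6. Hnf4a was at -0.10, -0.14 and -0.46 in WT and at 0.30, 0.87 and 0.67 in KO, and Dab2 at 0.12, 0.41 and 0.01 in WT and at 0.92, 0.85 and 0.79 in KO. Lrp2 stayed within 0.07 of the list median on all 6 arrays, and Fbp1 within 0.22. Ratios within an array show unequal change and not which gene changed.

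**Figure D4:**
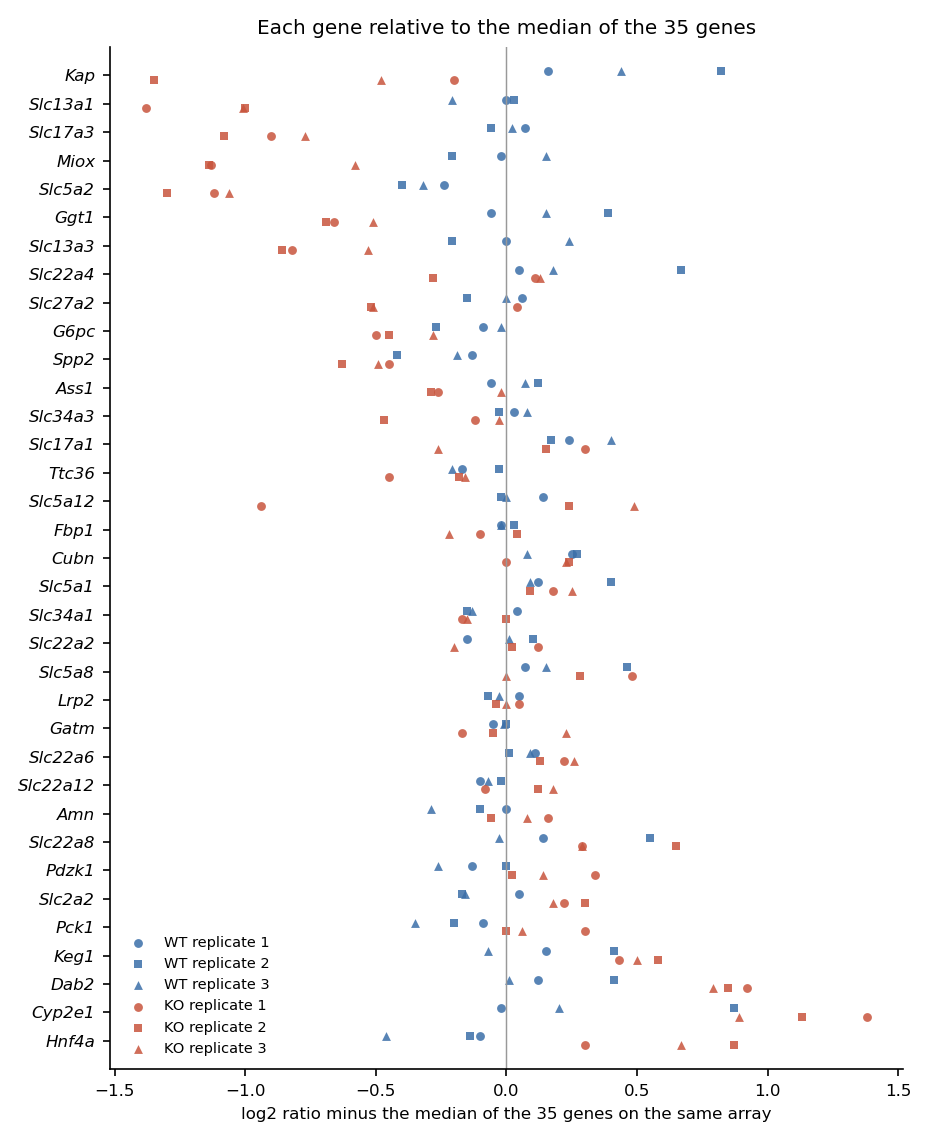
Log2 ratio of each of the 35 genes minus the median of the 35 on the same array (x axis), by gene (rows) and array, WT in blue and KO in red. The WT points draw together near 0 for most genes, and the KO points lie left of them for Slc13a1, Slc17a3, Miox and Slc5a2 and right of them for Hnf4a and Dab2.

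Of 91 other proximal tubule genes written as lists, 82 were tested, of which 27 fell and 5 rose in KO (32.9% lower, against 20.0% of all genes tested), with a median of -0.34. Several of them are also expressed in other nephron segments. Of these 82 genes 71 were lowest among WT on replicate 2, where their median ratio was -0.49. Lipid and peroxisomal enzymes had 8 of 14 lower (57.1%) and 0 higher, among them Cyp4b1, a fatty acid hydroxylase (-1.48 ± 0.24), and Cpt1a, which admits fatty acids to mitochondria (-0.98 ± 0.14). Of 11 amino acid and peptide transport genes 3 fell (27.3%) and 1 rose, with Slc15a2, the peptide transporter PEPT2, at -1.05 ± 0.09 and Slc7a8 at -0.89 ± 0.23. Of 14 sodium, acid, water and anion transport genes 4 fell (28.6%), with the water channel Aqp1 at -1.10 ± 0.12 and Slc22a18 at -0.85 ± 0.17.

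Of 8 brush border enzymes 3 fell (37.5%) and 1 rose, with Enpep, aminopeptidase A, at 1.13 ± 0.34 and Mme, neprilysin, at -1.01 ± 0.14. Of 18 genes of fructose, glycine and amino acid metabolism 4 fell (22.2%, near the 20.0% of all genes tested) and 1 rose, with the glycine decarboxylase Gldc at 1.52 ± 0.28. Of 11 genes of vitamin, folate and xenobiotic handling 2 fell and 2 rose (18.2% each), near the 20.0% and 15.3% of all genes tested. Cyp24a1, which inactivates vitamin D, was at -2.31 ± 0.37, and the vitamin D receptor gene Vdr at -1.29 ± 0.21, and both are known from distal segments too. Of 6 transcription factor and coactivator genes 3 fell (50%), with the coactivator Ppargc1a at -1.90 ± 0.33 and the bile acid receptor Nr1h4 at -0.91 ± 0.27.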

How the data were processed

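RNA of 6 samples (3 KO, 3 WT) was measured on 2-colour Agilent arrays, with 0.5 µg of total RNA per labelling per the labels. The deposited files held median spot and background intensities of both channels, the processed intensities and a log10 ratio of processed Cy5 over Cy3, written by Agilent Feature Extraction 10.7.3.1 per the file headers (the submitters' processing notes name version 6.1). The deposited series matrix held the same log10 ratios within 0.00499.

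Background was removed from the median intensities by normexp (offset 50), and the result was turned to log2 ratios and normalised by loess within each array, with control spots at weight 0 and outlier spots left out. Spots of a probe were averaged. Probes needed Cy5 well above background on 3 or more of the 6 arrays, and the brightest probe stood for its gene, named by matching accessions to a RefSeq table of GRCm38.p6 (27509 of 55681 probes). Differences are KO minus WT, fitted over 14753 genes with limma 3.58.1 in R 4.3.3 by a 2-sided test on 4 residual degrees of freedom and 3.96 prior ones, with p-values adjusted by Benjamini and Hochberg's method and called under 0.05. The fit was tested on simulated data. The number of arrays limits the precision.

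The members and gene lists were chosen with earlier results of these data known. All members were named, and of each list of other proximal genes the 2 called genes with the largest differences, of which 1 is not reported here. Alternatives were other scalings, filters and probe rules, blocks, array weights and each array left out.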

Additional observations from a re-analysis of the deposited data

How the results depend on the processing

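Of the 35 genes no called difference changed sign under any alternative run. The count of members lower in KO, 8, was 5 with the slide row term, 16 under array weights and 4 to 21 when single arrays were left out. The count of members higher, 0, was 3 with median centring (Dab2, Cyp2e1 and Hnf4a) and 0 to 1 when single arrays were left out. The median difference of the members was -0.79 with the slide row term and -0.66 to -0.18 when single arrays were left out. Under median centring the median over all genes was 0.24 in place of -0.02, that over the members -0.10, the median WT spread of the members 0.710 and 1036 of all genes were lower in place of 2952 and 2998 higher in place of 2262. With the slide row term 730 genes were higher and 1475 lower, and leaving out single arrays gave 1269 to 2373 higher and 1974 to 3342 lower. A fit on ratios relative to the median of the members, added after the data were seen, called 2 members lower (Kap and Slc13a1) and 0 higher. It gave every gene a standard error of 0.353. The cause was not tested for any of these changes.

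With the replicate block 10 members were lower and 0 higher, and 2240 and 2888 genes were higher and lower in all. Deviations of same-numbered arrays correlated at 0.14, 0.08 and 0.20, and each array correlated best with its own number. Deviations cancel out over the arrays of a group, so these correlations constrain each other. They cannot show a pairing, which the design does not give. Dim genes (Slc22a4, Slc5a1, Slc13a1 in KO, Cyp2e1) limit what the ratios can show.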

Other observations

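Sex-linked transcripts differed between samples, WT samples included. Of the 3 tested, Ddx3y was higher in KO (limma adjusted p = 0.0429), while Eif2s3y and Xist did not pass (0.121 and 0.198). The Y-linked Eif2s3y had ratios of 0.22, 1.83 and 0.57 on the WT arrays and 1.92, 1.99 and 1.30 on the KO arrays, with processed Cy5 signals of 169.7, 754.3 and 239.9 in WT. Xist, transcribed from the inactive X chromosome, gave 0.17, -0.32 and -0.17 in WT and -2.07, -0.51 and -0.13 in KO, so it was lowest on KO replicate 1. The probes of Eif2s3y and Xist were well above background on all 6 arrays, whereas the Y-linked Kdm5d was on 2 and the Y-linked Uty on 1. The labels used here do not give the sex of the pups.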
